A study of Mus musculus with 2 samples.

Results

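The Aim2 and Ifi200 genes are a tandem family on mouse chromosome 1, and the loops that Hi-C found over them in a blood progenitor line are described here. The 9 members, Aim2, Ifi206, Ifi209, Ifi208, Ifi207, Ifi204, Mndal, Ifi203 and Ifi205 in map order, are 9 of the 21521 protein-coding genes of the autosomes and chromosome X. They were listed by name, together with a window of 1.9 Mb (172800001 to 174700000, mm10) and an anchor in it that was known to have 4 loops. The members were thus chosen by the positions of these loops, and counts over them are a description with no test. Loops were taken into account when an anchor or their span lay in the window. It held 1 of 1276 loops of replicate 1 and 7 of 5729 loops of replicate 2 under the medium call setting.

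Hi-C joins and sequences pieces of DNA that touch inside the nucleus, and it was applied to HPC5, a haematopoietic progenitor line derived from mouse bone marrow. There was 1 group of 2 replicates, Etv6+/+ with no treatment listed beside the assay, and no sample with another Etv6 genotype. A loop is a pair of segments, its anchors, called as touching more often than their surroundings, and a domain is a stretch that mostly touches itself. All values come from 1 cell line, and the labels do not say whether the replicates came from separate cultures, so their spread can be purely technical. No expression was measured in these files, so the cell type could not be checked against marker genes and whether the members are active is not known from them. The replicates differ widely in how much was called: 1276 loops against 5729, and 3 domains against 339, with unknown sequencing depth behind both.

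AIM2-like proteins, also called PYHIN proteins, typically pair a pyrin domain, which binds other proteins, with a HIN domain that binds double-stranded DNA. Not every gene counted with the family here encodes both domains. Aim2 senses DNA in the cytosol and recruits the adaptor Pycard to form an inflammasome, which activates caspase-1 and releases interleukin-1 beta and interleukin-18. Most Ifi200 genes are induced by interferon. The proteins that interferon activates bind a DNA element called ISRE, and ETV6, the repressor named in the series title, belongs to the ETS family, which binds DNA around the letters GGAA.

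The promoter sequences show what most members have in common apart from their position. RefSeq (GRCm38.p6) listed promoter windows, from 250 bases before to 50 bases after the start, for 8 of the 9 members and for 12 of the 14 PYHIN genes and pseudogenes in the window of the map. Ifi204 and Ifi203-ps had none. The stretches below are 40 bases long, read 5′ to 3′ along the gene, and are shown because they carry the ISRE that lies before the start of 9 genes, in related sequence. Capitals mark the match to the ISRE, searched as GAAA, any 2 bases and GAAA, and for Ifi209 the corresponding letters, which are not a match.
Ifi206: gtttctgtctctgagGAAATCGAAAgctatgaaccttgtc
Ifi214: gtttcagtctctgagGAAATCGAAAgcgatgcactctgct
Ifi213: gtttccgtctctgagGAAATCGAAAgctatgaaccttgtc
Ifi209: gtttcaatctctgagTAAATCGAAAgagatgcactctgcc
Ifi208: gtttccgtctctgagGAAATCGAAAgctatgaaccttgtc
Ifi207: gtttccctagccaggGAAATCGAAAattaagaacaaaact
Mndal: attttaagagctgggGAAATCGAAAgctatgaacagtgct
Ifi211: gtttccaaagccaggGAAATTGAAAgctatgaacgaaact
Ifi203: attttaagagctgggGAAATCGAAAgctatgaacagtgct
Ifi205: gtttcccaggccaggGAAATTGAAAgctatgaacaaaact
In GRCm38.p6 the stretches on the minus strand are Ifi206 at chr1:173491334-173491373, Ifi214 at chr1:173536012-173536051, Ifi213 at chr1:173599321-173599360, Ifi207 at chr1:173741826-173741865, Mndal at chr1:173880199-173880238, Ifi211 at chr1:173913059-173913098, Ifi203 at chr1:173942503-173942542 and Ifi205 at chr1:174031865-174031904. Those on the plus strand are Ifi209 at chr1:173630765-173630804 and Ifi208 at chr1:173673592-173673631. The stretch of Ifi213 has the same letters as that of Ifi208, and the stretch of Mndal the same as that of Ifi203.

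ISRE matches, on either strand, were in 10 of the 14 PYHIN promoter windows (71.4%), which belong to 9 of 12 genes, against 3.46% of all 32619 promoter windows. The genes with a match were Ifi206, Ifi214, Ifi213, Ifi208, Ifi207, Mndal, Ifi211, Ifi203 and Ifi205, and those without were Aim2, Ifi209 and Ifi202b. The spelling GAAATCGAAA accounted for 7 of the 11 matches, 1 each in 7 genes. It was found in 16 of all 32619 windows, so that 7 of those 16 lie in this family. This spelling was picked as the commonest in these same windows, so its share in the family is only a description. The first base of the 9 matches shown lay at positions -134 (Ifi205) to -35 (Ifi203), counted from the start as 0. Ifi209 had a near match, with 1 base changed (G1T, positions counted from the first base of the motif), at -79, where Ifi214 has its match. Near matches are not particular to Ifi209. Read on the opposite strand, the Aim2 and Ifi202b windows also hold letters with 1 base changed from the motif. Some of these windows are near copies of one another, so the windows are not independent, and they are themselves part of the 32619. A match says only that the letters are there.

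ETS letters were as common, in the spelling CAGGAAG on either strand. They were in 10 of the 14 windows (71.4%), of 8 genes, against 13.4% of all windows. Both Mndal windows overlap and hold the same CAGGAAG site, which is thus counted in each. The other ETS spelling, CCGGAA, was in 1 window, that of Aim2, against 4892 of all 32619 windows. The GAS element TTCNNNGAA, to which interferon gamma signalling leads, was in 1 window, that of Ifi202b, against 8.34%. No 2 matches of different motifs overlapped in these windows.

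**Figure D1:**
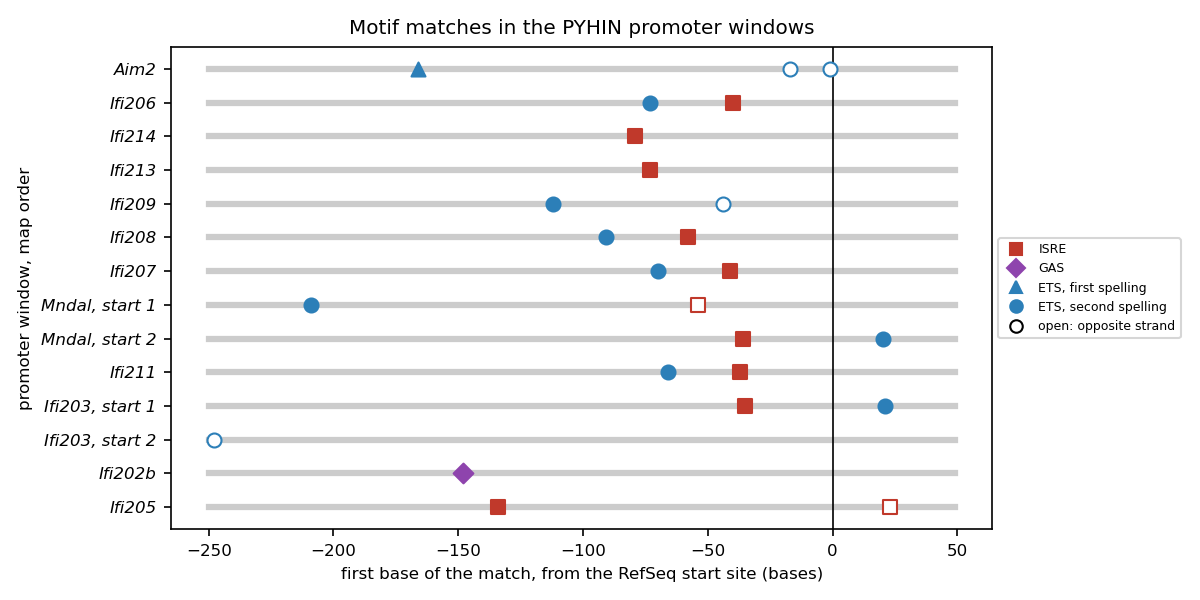
Each grey line is 1 of the 14 RefSeq promoter windows of the PYHIN genes in map order, the x axis gives bases from the start site, and markers are motif matches on the strand of the gene (filled) or on the opposite strand (open). ISRE matches on the strand of the gene stand at -134 to -35 in 9 genes, those on the opposite strand at -54 (Mndal) and 23 (Ifi205), and the Aim2 window has 3 ETS matches and no ISRE match.

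The Aim2 window, which has no ISRE match and is the one with CCGGAA, is shown whole beside that of Ifi207, the only member whose start lies in a loop anchor. Aim2 is given at chr1:173420354-173420653 on the plus strand and Ifi207 at chr1:173741760-173742059 on the minus strand, with every motif match in capitals.
Aim2: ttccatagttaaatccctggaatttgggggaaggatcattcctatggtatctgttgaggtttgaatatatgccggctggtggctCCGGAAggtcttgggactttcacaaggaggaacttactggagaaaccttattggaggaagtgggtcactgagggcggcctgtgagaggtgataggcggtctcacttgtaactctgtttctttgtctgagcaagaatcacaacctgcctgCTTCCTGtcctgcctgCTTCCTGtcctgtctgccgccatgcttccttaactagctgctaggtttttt
Ifi207: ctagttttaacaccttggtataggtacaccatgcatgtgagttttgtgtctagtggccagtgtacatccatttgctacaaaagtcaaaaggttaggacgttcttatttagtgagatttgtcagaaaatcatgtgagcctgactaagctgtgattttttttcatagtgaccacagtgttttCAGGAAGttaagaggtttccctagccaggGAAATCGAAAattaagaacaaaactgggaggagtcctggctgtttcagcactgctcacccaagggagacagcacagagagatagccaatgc
In Aim2 the capitals mark CCGGAA at -166 and the reverse complement of CAGGAAG, written CTTCCTG, at -17 and at -1, just before and across the start. In Ifi207 they mark CAGGAAG at -70 and the ISRE at -41. Aligned end to end with 1 window per gene, taking one with an ISRE match where there was one, the Aim2 window was identical to the other 11 PYHIN windows at 46.9 to 53.9% of positions, with a median of 51.0%, and pairs without Aim2 had a median of 53.5% and ranged from 46.0 to 95.3%. The Ifi205 window matched the others at 46.0 to 53.6% of positions, but its windows are offset from those of its closest relatives. Its ISRE lay at -134, against -37 in Ifi211 and -41 in Ifi207. The end-to-end alignments of Ifi205 with these genes were 399 and 396 positions long, at 47.6 and 46.0% identity. Yet the stretches around the ISRE of Ifi205 and Ifi211 given above are nearly the same. Whether low identity is particular to Aim2 thus cannot be told from these end-to-end values. Promoters of unrelated genes were not aligned, so values like those of Aim2 do not show that windows are related. The pairs with the highest end-to-end identity were Ifi214 and Ifi209 at 95.3%, Mndal and Ifi203 at 90.7%, and Ifi213 and Ifi208 at 89.5%. Next were Ifi206 and Ifi208 at 87.5%, and Ifi207 and Ifi211 at 85.9%. This order depends on where the listed starts lie and can miss related windows that are offset.

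The 13 protein-coding PYHIN genes run over 682.2 kb, from the left end of Aim2 at 173349547 to the right end of Ifi205 at 174031755. Beside the members they include Ifi214, Ifi213, Ifi211 and Ifi202b, whose protein lacks the pyrin domain and holds back Aim2, and the pseudogene Ifi203-ps lies among them. Of the genes with a listed strand, Aim2, Ifi209 and Ifi208 are on the plus strand and 9 are on the minus strand. The window also holds 19 olfactory receptor genes on both sides of the family, the pentraxin genes Apcs, Mptx2 and Mptx1, and 5 others. Among these are Fcer1a, a chain of the IgE receptor, Ackr1, an atypical chemokine receptor, Cadm3, a cell adhesion gene, and part of Fmn2, a formin gene.

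A 25 kb anchor at the boundary of Aim2 and Ifi206 was the start of 3 loops in replicate 2 and of 1 in replicate 1, all to the right, over the Ifi200 genes. The anchor, 173450001 to 173474999, held the right end of Aim2 at 173466040 and the left end of Ifi206 at 173468485, which are 2444 bases apart. Both are the ends at which transcription stops. The listed start of Aim2, at 173420604, lay 29397 bases to the left of the anchor and that of Ifi206, at 173491318, 16319 bases to the right of it. Aim2 has an annotated span of 116494 bases, and its listed start lies 71057 bases from the left end of that span. With the loops of both lists added, 20 of 12263 distinct anchors had 4 loops and 3 had more, together 0.188%. In replicate 2 alone, 61 anchors had 3 loops as this one did, 3 had more, and at 46 of the 61 all loops ran to one side, as here.

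The loop of 650 kb was listed in both replicates with identical anchors. It joined the anchor at Aim2 and Ifi206 to 174100001 to 174124999, which held the right end of Olfr427 and all of Olfr231, and so enclosed every Ifi200 gene, 12 PYHIN genes with 8 of the 9 members, and 6 olfactory receptor genes. Aim2 alone among the members was not enclosed. The value n, a whole number deposited per loop whose meaning the files do not define, was 23 in replicate 1 and 59 in replicate 2, a ratio of 2.57. Over the 163 loops on 25 kb anchors that both lists give with identical anchors the median ratio was 2.87, with quartiles of 2.53 and 3.16, so the ratio of this loop lay between them. In replicate 2 the 24 loops of this width and span had a median n of 38, from 18 to 79, and 3 had a higher n than this loop. In replicate 1 the 9 such loops had a median of 20, from 16 to 30, and 2 were higher.

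This was the only loop of replicate 1 in the window, and it was found again, as 80.6% of all its 1276 loops were (95% Wilson interval 78.4 to 82.7%, which covers counting error only). In the other direction 1 of 7 replicate 2 loops had a partner in replicate 1, against 18.2% of all 5729. For replicate 2 loops on 25 kb anchors, the width of the shared loop, the share was 7.03% of 2375. Among the 1029 loops of replicate 1 that were found again, 39 (3.79%) were at least as long as 650 kb.

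Replicate 2 gave 2 more loops from the same anchor. One of 275 kb ended at 173725001 to 173749999, which held the right end of Ifi207 with its listed start, and the left end of Ifi204, a gene linked to DNA sensing and to growth control in the mouse. It joined members to members, since each of its anchors held ends of a neighbouring pair, and enclosed 6 PYHIN genes, Ifi206, Ifi214, Ifi213, Ifi209, Ifi208 and Ifi207. Its n was 48, against a median of 53.5 over the 96 replicate 2 loops of this width and span, 63 of which were higher. The other, of 1000 kb, ended at 174450001 to 174474999, where no protein-coding gene ends. The right end of Olfr220 lay 399 bases outside. It enclosed 27 protein-coding genes, among them the same 12 PYHIN genes, 13 olfactory receptor genes and Mptx1. Its n was 29, against a median of 28 over 9 such loops. Loops of 1000 kb or more are 2.18% of the replicate 2 list.

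Of the 3 loops from this anchor, n was highest at 650 kb (59) and not at 275 kb (48), while over all replicate 2 loops on 25 kb anchors the medians at these spans were 53.5 at 275 kb, 38 at 650 kb and 28 at 1000 kb. No test was made, since the loops are single entries in 1 list.

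**Figure D2:**
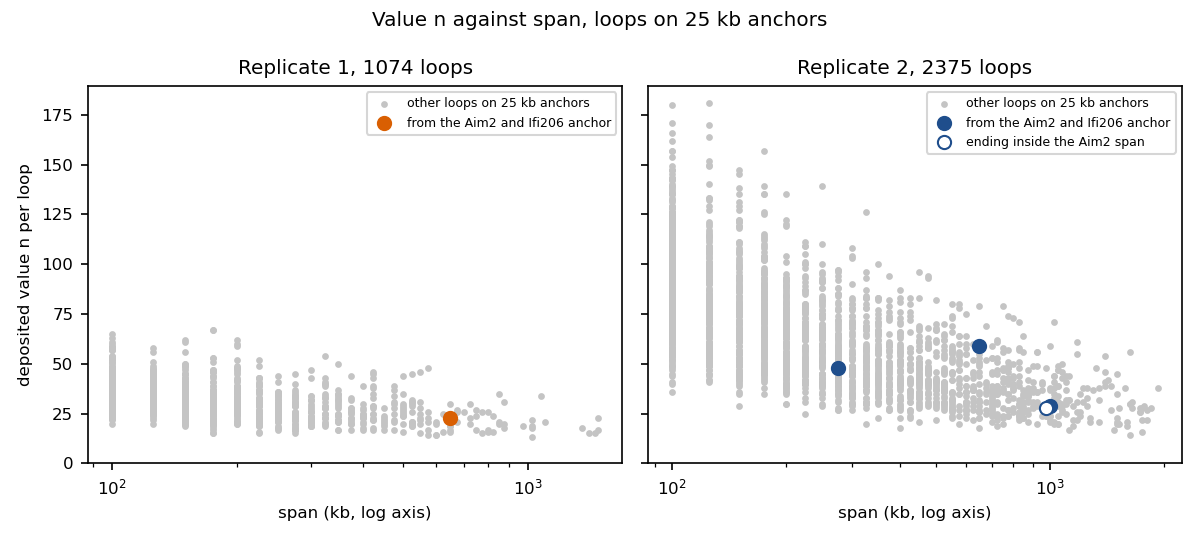
Each point is a loop on 25 kb anchors, with its span on a log axis in kb and the deposited value n on the y axis, for replicate 1 (left) and replicate 2 (right). The 650 kb loop has n = 23 in replicate 1 and n = 59 in replicate 2, where it lies above the 275 kb loop (48) and the 1000 kb loop (29) from the same anchor.

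The right part of the family had a loop of its own. In replicate 2 a loop of 250 kb on 10 kb anchors joined 173850001 to 173859999, which held the left end of Mndal, the end of its transcription, to 174100001 to 174109999 at the right end of Olfr427. The second anchor lies inside the 25 kb anchor of the 650 kb loop. Enclosed were 5 PYHIN genes, Mndal, Ifi211, Ifi203, Ifi202b and Ifi205, a gene known in mouse macrophages to influence Pycard levels, and 5 olfactory receptor genes. Its n was 24, against a median of 25 over 38 loops of this width and span. It was also in the list of the high setting, where the 3 loops from the Aim2 and Ifi206 anchor were absent. In the window, all loops on 5 or 10 kb anchors were in that list and none on 25 kb anchors. The high list of replicate 2 had 3354 loops, as many as its medium list has on 5 kb (986) and 10 kb (2368) anchors together. Absence from the high list thus goes with anchor width and does not show a weaker loop.

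The 275 kb loop and the 250 kb loop thus covered the left and the right part of the family without touching. The stretch between their anchors, 173750000 to 173850000, was 100 kb long and held 17070 bases of Ifi204 and all of Ifi203-ps. Ifi204 was the only member with an end in the right anchor of the first loop and most of its body outside both.

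**Figure D3:**
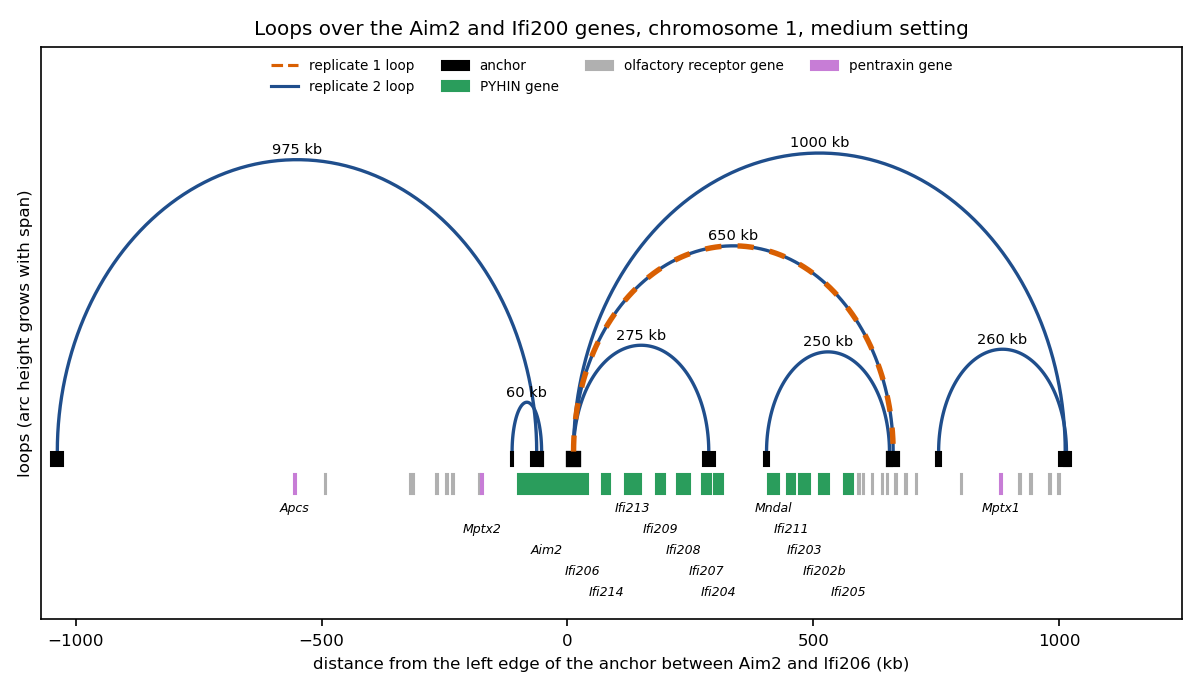
Arcs join the anchors (black boxes) of each medium-setting loop of the window, labelled by span, over the PYHIN, olfactory receptor and pentraxin genes (coloured boxes), and the x axis is the distance in kb from the left edge of the anchor at Aim2 and Ifi206. The 650 kb arc is drawn for both replicates, the other 6 arcs for replicate 2 alone, and 3 arcs start at the Aim2 and Ifi206 anchor.

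Left of the family, 2 replicate 2 loops ended within the annotated span of Aim2. One of 60 kb on 5 kb anchors joined 173335001 to 173339999 in the body of Cadm3 to 173395001 to 173399999, and it was in the high-setting list too. Its n was 18, against a median of 19 over 43 loops of its kind. One of 975 kb joined 172400001 to 172424999, outside the window and with no protein-coding gene end, to 173375001 to 173399999. It had an n of 28 and enclosed 20 protein-coding genes, among them Crp, Apcs, Fcer1a, Ackr1 and Cadm3, and 0 members. The right edge that these loops share lay 20605 bases left of the listed Aim2 start, which stood between the loops to the left and those to the right and in no anchor. Right of the family, a loop of 260 kb ended at 174460001 to 174469999, within the 25 kb anchor of the 1000 kb loop, with an n of 17 against a median of 22 over 38 loops.

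Through overlapping anchors, 5 of the 7 replicate 2 loops formed 1 chain of 1025 kb, from the Aim2 and Ifi206 anchor to the far end of the 1000 kb loop. Of all 5729 loops, 9.91% were in chains of 5 or more and 46.5% shared no anchor with another loop. The loops of 60 and 975 kb were joined to each other at the Aim2 span and, through the outer anchor, to 3 loops left of the window, and no loop bridged both chains. The loop nearest to the window on the left ended 160.001 kb before it, and on the right the nearest began 920.001 kb after it.

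Member by member, 5 of the 9 had an end in an anchor (55.6%), against 22.5% of all protein-coding genes. Since the anchors chose the members, nothing is read from this difference. Aim2 and Ifi206 had theirs in both replicates, and Ifi207, Ifi204 and Mndal in replicate 2 alone, where 19.8% of all genes had one, against 6.67% in replicate 1. Ifi209, Ifi208, Ifi203 and Ifi205 had none. The nearest anchor was 77073 bases from an end of Ifi209, 26608 from Ifi208, 60401 from Ifi203 and 68246 from Ifi205. The start site gave another count. It lay in an anchor for 1 of the 8 members with a listed start, Ifi207, or 12.5%, against 14.9% of the 17274 genes with one, which is close to that background. The 4 PYHIN genes that are not members had no end in an anchor, and of the 19 olfactory receptor genes Olfr427 and Olfr231 did, against 2.89% of 1109 such genes in the genome.

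Whole genes were enclosed between the outer edges of the anchors for 8 of 9 members, against 35.0% of all protein-coding genes. Counting each list's entries, Ifi206, Ifi209, Ifi208, Ifi207, Mndal, Ifi203 and Ifi205 were each enclosed by 4 loops, 1 in replicate 1 and 3 in replicate 2. Ifi204 was enclosed by 3 and Aim2 by 0. At least 4 enclosing entries were found for 2.09% of all genes and at least 3 for 5.73%. The 8 genes sit under the same few loops, so they count as 1 observation and not as 8.

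**Figure D4:**
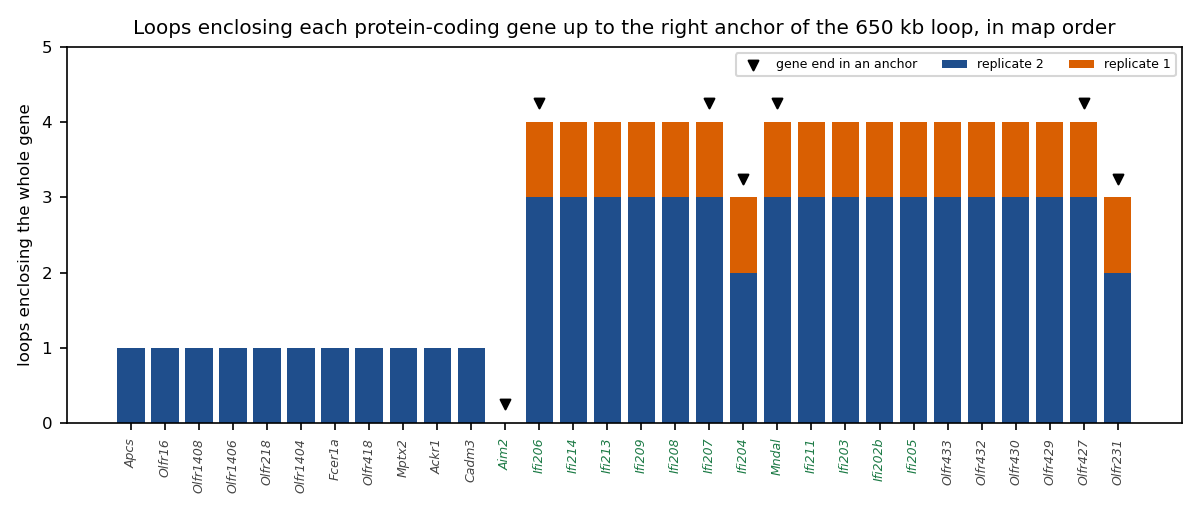
Bars give, for each protein-coding gene of the window up to the right anchor of the 650 kb loop, in map order, the number of medium-setting loops that enclose the whole gene in replicate 2 and in replicate 1, stacked, and triangles mark genes with an end in an anchor. PYHIN names are in green: Aim2 stands at 0 beside its family, which stands at 4 except for Ifi204 at 3.

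The number of loops in the window was inside the middle range of the genome, and their median span was longer. It had 8 loops in both lists together, against a median of 5 (quartiles 2 and 9) over 1345 windows of the same length tiled along the chromosomes, of which 33.8% had 8 or more. The 7 loops of replicate 2 had a median span of 275 kb, against 150 kb for its whole list, and 4 of the 7 were on 25 kb anchors, against 41.5% of that list. Keeping every loop that reaches into the window favours long loops, and the whole list has no such rule. The median spans are thus not on equal terms. Narrow anchors place a contact within 5 or 10 kb and wide ones within 25 kb, so which of a pair of genes in one 25 kb anchor takes part cannot be told.

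No domain overlapped the window in either replicate. Replicate 1 had 3 domains in all and 0 on chromosome 1. Replicate 2 had 24 of its 339 on chromosome 1, the nearest ending 2185 kb to the left and beginning 5735 kb to the right. In replicate 2, 74.8% of the windows of this length held none.

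Other genes of cytosolic DNA sensing and the inflammasome were counted at anchors in the same way. Of a list of 31, with Aim2, 9 had an end in an anchor, or 29.0% (95% Wilson interval 16.1 to 46.6%), against 22.5% of all genes, a share inside that interval. Without Aim2 the count was 8 of 30 (26.7%). The 5 of these 8 with the shortest loops, ties taken in alphabetical order, are named. They were Nlrp3, another inflammasome sensor, with a loop of 40 kb in replicate 2, and Il18, a cytokine released by inflammasomes, with one of 50 kb in replicate 1. Pycard, the adaptor that Aim2 recruits, had 3 loops over both replicates, the shortest of 70 kb. Casp8, a caspase gene, and Hmgb1, which encodes a chromatin protein that acts as a danger signal outside cells, had loops of 100 kb in replicate 2.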

How the data were processed

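Hi-C loops and domains were deposited for 2 replicates of HPC5. HiC-Pro 2.11.1 and mm10 are recorded per the submitters' processing notes. Which caller made the loops or the domains is not given in the sources used here. Per the files, each replicate has 1 loop list for each of 2 call settings, named medium and high here after terms in the list names, and 1 domain list. A deposited loop is a pair of anchors of 5, 10 or 25 kb with a number n and a value qBL, neither defined. Loops were ranked by n, and qBL was left aside. Read totals are not in the lists, so depth is unknown.

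Loops with an anchor in or a span over the window were kept. Span is the distance between anchor midpoints, and loops were shared when both midpoints lay within 20 kb. A gene was at an anchor when either end lay in it. Genes and promoters came from RefSeq tables of GRCm38.p6, the assembly of mm10, and 345 genes on scaffolds were left out. The start is the base 250 after the first of a promoter window, counted as 0. Protein sequences were not used here, and no genome sequence was used. Domain starts were moved by 1 base to count from 1. Python 3.11.15, pandas 2.3.3 and scipy 1.17.1 were used, with Biopython 1.88 for global alignment of promoters, identity taken over the aligned length. Loop matching, gene ends at anchors and enclosure were tested on cases with known answers built from replicate 2 loops. Motif counts and alignment were not part of that test.

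The members, gene lists and motifs were chosen with earlier results of these data known. Named are the 9 members, the other PYHIN genes, genes with an end in an anchor of a window loop, neighbours, and up to 5 genes of the DNA sensing list by shortest loop, with ties in alphabetical order. Genes enclosed left of the family were named after their values were seen. No test between groups was possible with 1 group. Alternatives were the high setting, either replicate left out, other matching distances, gene bodies, ends within 5 or 10 kb, shared loops alone, inner anchor edges and, added after seeing the data, the start site in place of gene ends. 1 gene of the window is not reported here.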

Additional observations from a re-analysis of the deposited data

How the results depend on the processing

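Most counts rest on replicate 2 and on the medium setting. No loop of the window on 25 kb anchors was in a high list. In replicate 1, 1074 of 1276 medium loops are on 25 kb anchors, and its high list had 202 loops. The counts under the high setting thus follow from leaving out 25 kb anchors and do not measure how strong the loops are. Under the high setting the window had 3 loops in place of 8, the Aim2 and Ifi206 anchor 0 in place of 4, and the members at anchors were 1 (Mndal) in place of 5, as were the PYHIN genes. The high setting also gave 3 members enclosed in place of 8, and 4 DNA sensing genes at anchors in place of 9, and replicate 1 then had 0 loops in the window, so that sharing has no value. With either replicate left out, the window had 1 to 7 loops, the anchor 1 to 3, the members at anchors were 2 to 5, the PYHIN genes 2 to 5 and the DNA sensing genes 3 to 8, each time with the lower count when replicate 2 was left out. Enclosure kept a count of 8 members without either replicate, and gave 7 between inner edges. With shared loops alone the counts at anchors were 2 members, 2 PYHIN genes and 2 DNA sensing genes. With start sites, 1 member was at an anchor. Gene bodies, or ends within 5 or 10 kb, left 5 members and 5 PYHIN genes, while the DNA sensing genes at anchors were 12 by gene bodies and 13 by ends within 5 or within 10 kb, in place of 9. The 650 kb loop was shared under every matching rule run. No paired analysis was possible because there is 1 group. Depth is unknown, so a loop missing from the replicate 1 list is not shown to be absent.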

Other observations

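Of the 5 pairs of promoters with the highest end-to-end identity, 3 had both an ISRE and a CAGGAAG match in each promoter. Within each of these pairs the number of bases between the matches was the same. CAGGAAG stood before the ISRE with 26 bases between in Ifi206 and Ifi208, and with 22 bases between in Ifi207 and Ifi211. It stood after the ISRE with 46 bases between in Mndal and Ifi203. The promoters of these pairs were 87.5, 85.9 and 90.7% identical. Since the pairs were picked for their identity, the shared spacing is not a finding separate from it. In the other 2 pairs the matches differed. Ifi214 had an ISRE and no CAGGAAG match, while Ifi209, 95.3% identical to it, had CAGGAAG and no ISRE match. Ifi213, 89.5% identical to Ifi208, had an ISRE and no CAGGAAG match. Ifi207 and Ifi211 lie on opposite sides of the stretch without anchors, and Ifi206 and Ifi208 lie under the same 275 kb loop. Outside the family, the spelling GAAATCGAAA was in 9 promoter windows, those of Adcyap1, Ddx58, Gm26797, Gm31431, Parp11, Pnrc1, Ripk1, Serpinb6a and Six3os1, named after their sequences were seen.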
